A study of Mus musculus with 11 samples.

Results

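The 10 hypoxia response genes described here were Hif1a, Egln3, Car9, Adm, Slc2a1, Pdk1, Bnip3, Ndrg1, P4ha1 and Ankrd37. They were chosen by symbol, as genes known to serve or follow the response to low oxygen, and all 10 were found among the 17475 genes of the deposited expression table. They were followed in macrophages sorted from mammary tumours of 6 female mice, in 11 RNA-seq libraries. MYC TAMs (3 libraries, mice 2, 4 and 6) and MYC MTMs (2 libraries, mice 2 and 4) came from S100a8-cre Rosa26-LSL-MYC PyMT mice, in which Cre made under the S100a8 promoter removes a stop in front of a MYC transgene. Control TAMs and control MTMs (3 libraries each, mice 1, 3 and 5) came from PyMT mice, and PyMT is a viral oncogene that drives mammary tumours. Mice of both genotypes were backcrossed to B6, lethally irradiated at 7 weeks of age, given 3 M (M for mega) wild-type B6 bone marrow cells and, 2 weeks later, put on a low protein diet for 6 weeks. No group was on another diet, and cells grown from the donor marrow would carry neither transgene. TAMs, tumour-associated macrophages of the parenchyma, were sorted as CD45 positive, F4/80 positive and Vcam positive, and MTMs, stromal mammary tissue macrophages, as CD45 positive, F4/80 positive, Vcam negative and FOLR2 positive. Cells positive for SiglecF, Ly6G, B220 or Ly6C were gated out.

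Cells sense oxygen through prolyl hydroxylases of the Egln family. With oxygen present these enzymes mark the HIF alpha subunits, such as the one encoded by Hif1a, for binding by the Vhl protein and breakdown; when oxygen is scarce the alpha subunit is kept, pairs with Arnt and binds hypoxia response elements, short sequences around ACGTG or GCGTG. HIF-1 is known to raise genes of glucose uptake and glycolysis, pH control, mitophagy and angiogenesis, and macrophages in poorly perfused areas of tumours are known to use this response. HIF-1 alpha is set largely at the protein level, which RNA does not measure.

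The sequences just before the transcription start are shown for 5 of the genes whose levels differed between groups, because HIF acts through sequences of this kind. They are from RefSeq (GRCm38.p6), 250 bases up to the start, 5′ to 3′ on the strand of the gene. Capitals mark the core ACGTG or GCGTG on either strand, so that CACGT and CACGC are the same cores read on the other strand.
Hif1a, chr12:73907617-73907866, plus strand: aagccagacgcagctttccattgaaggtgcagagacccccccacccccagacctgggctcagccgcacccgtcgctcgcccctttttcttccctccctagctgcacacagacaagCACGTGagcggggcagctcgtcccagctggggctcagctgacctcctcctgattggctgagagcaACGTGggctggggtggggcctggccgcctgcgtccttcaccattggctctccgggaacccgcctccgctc
Egln3, chr12:54203875-54204124, minus strand: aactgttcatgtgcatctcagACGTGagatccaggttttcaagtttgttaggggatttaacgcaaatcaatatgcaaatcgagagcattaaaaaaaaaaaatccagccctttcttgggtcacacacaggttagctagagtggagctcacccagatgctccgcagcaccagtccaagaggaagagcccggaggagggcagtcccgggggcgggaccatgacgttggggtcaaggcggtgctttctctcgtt
Car9, chr4:43506776-43507025, plus strand: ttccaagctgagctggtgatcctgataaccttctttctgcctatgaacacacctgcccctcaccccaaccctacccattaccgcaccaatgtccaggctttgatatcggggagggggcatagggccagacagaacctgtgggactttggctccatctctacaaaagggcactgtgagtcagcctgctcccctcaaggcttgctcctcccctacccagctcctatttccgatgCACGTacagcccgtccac
Adm, chr7:110627407-110627656, plus strand: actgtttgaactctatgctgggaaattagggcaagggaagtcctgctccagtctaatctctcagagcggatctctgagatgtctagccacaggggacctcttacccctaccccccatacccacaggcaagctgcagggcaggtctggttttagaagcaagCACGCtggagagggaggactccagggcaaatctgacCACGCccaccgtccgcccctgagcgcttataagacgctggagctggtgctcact
Bnip3, chr7:138909507-138909756, minus strand: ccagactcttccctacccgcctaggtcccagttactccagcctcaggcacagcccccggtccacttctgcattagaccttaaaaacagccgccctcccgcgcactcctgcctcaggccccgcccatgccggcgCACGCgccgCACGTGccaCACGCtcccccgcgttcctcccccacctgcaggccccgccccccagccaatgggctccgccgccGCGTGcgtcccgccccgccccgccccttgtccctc
ACGTG was found in 7 of the 9 hypoxia response genes with a sequence, against 16.6% of all 32851 promoter windows in the table and 19.7% of the 15470 windows of genes that were measured here. In Car9 it begins 18 bases before the start, in Egln3 229 bases before it. Bnip3 and Hif1a hold it inside CACGTG, the E-box that MYC and its partner MAX are known to bind, and this palindrome counts as a match on both strands. CACGTG was in 7.56% of the windows of measured genes. Hif1a has a further ACGTG 70 bases before the start. Slc2a1, P4ha1 and Ankrd37 also held ACGTG, Adm and Pdk1 did not, and GCGTG was in 6 of the 9, against 39.5% of the windows of measured genes. Ndrg1 was not matched. A match says only that these letters are present in this window.

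The depth estimated from the spacing of the low values was 33.0 to 43.7 M reads a library. The library of MYC TAMs from mouse 4 stood apart, with 583 genes without a read, against 2072 to 3524 in the others. It also had the lowest depth (33.0 M). Its fitted library weight, which is low where a library lies far from its group mean, was 0.0827, against 0.616 to 2.46 in the others. All 13 macrophage markers were measured. Their mean level was 7.10 to 7.61 in MYC TAMs, 8.37 to 8.42 in MYC MTMs, 7.90 to 8.31 in control TAMs and 8.42 to 8.66 in control MTMs, in log2 units. The 13 include the gate genes Folr2 and Vcam1, so these means carry the sort itself. At an adjusted p below 0.05 (limma), 7 of the 13 were lower and 2 higher in MYC TAMs than in control TAMs. Of all genes, 12.0% were lower and 3.89% higher. Csf1r averaged 7.90 in MYC TAMs and 10.47 in control TAMs, and Cd68 10.32 and 8.37. Folr2, the gene of the MTM gate, separated the sorts (1.07 to 3.62 in MYC TAMs and 8.07 to 8.45 in MYC MTMs). Vcam1 did not match the gate in MYC mice: it was 0.96 to 2.82 in the MYC TAMs, against 2.31 and 2.32 in the MYC MTMs. It was 7.64 to 8.60 in the control TAMs and 5.25 to 6.86 in the control MTMs. The control MTMs, sorted as Vcam negative, thus lay above the MYC TAMs, sorted as Vcam positive. The groups are therefore those of the labels. The Myc gene itself was 1.78 to 2.16 in MYC TAMs and 2.66 to 3.18 in control TAMs, lower by a log2 difference of -1.02 ± 0.19 (SE, adjusted p = 0.00583, limma), and whether its row counts the transgene is not given in the sources used here.

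All levels are the deposited log2 expression values, which behave as the log2 of a length- and depth-scaled read number plus 1, so that differences understate the change of low genes. On this scale the means over 11 libraries ran from 1.59 for Adm to 6.18 for Bnip3. Estimated reads per library ran from 12 to 276 for Adm and from 3102 to 9713 for Bnip3.

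Hif1a, the HIF-1 alpha subunit, stood at 4.26, 4.69 and 4.97 in MYC TAMs, 5.53 and 5.66 in MYC MTMs, 5.02, 5.16 and 5.42 in control TAMs and 5.81, 5.68 and 5.74 in control MTMs. The MTM groups lay above both TAM groups, and no group overlapped the next in the order of means. Egln3, an oxygen-sensing prolyl hydroxylase that HIF itself induces, was 1.63, 1.52 and 1.81 in MYC TAMs, 2.81 and 2.73 in MYC MTMs, 2.44, 3.88 and 2.97 in control TAMs and 2.29, 3.46 and 2.65 in control MTMs. MYC TAMs lay below all other libraries, and mouse 3 was the highest of both control groups.

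Car9 encodes carbonic anhydrase 9, a cell-surface enzyme of pH control and a standard hypoxia marker. Its levels were 2.12, 2.48 and 2.51 in MYC TAMs, 3.53 and 3.28 in MYC MTMs, 3.98, 4.43 and 4.21 in control TAMs and 3.50, 3.79 and 3.86 in control MTMs. The 3 MYC TAM libraries were the lowest of the 11, and the 3 control TAM libraries the highest. Adm, the vasodilator peptide adrenomedullin, was 0.61, 0.40 and 0.90 in MYC TAMs, 2.01 and 1.23 in MYC MTMs, 1.88, 2.73 and 1.56 in control TAMs and 2.34, 2.09 and 1.77 in control MTMs. Here too MYC TAMs lay below all other libraries.

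Of the genes of glucose use, Slc2a1, the glucose transporter GLUT1, was 4.18, 4.12 and 4.92 in MYC TAMs, 4.61 and 4.69 in MYC MTMs, 4.63, 4.51 and 4.64 in control TAMs and 4.11, 4.24 and 4.36 in control MTMs. Neighbouring groups in its order overlapped throughout. Pdk1, a kinase that inhibits pyruvate dehydrogenase, was 2.82, 2.30 and 2.47 in MYC TAMs, 2.95 and 3.33 in MYC MTMs, 2.81, 2.45 and 2.49 in control TAMs and 1.76, 2.45 and 2.98 in control MTMs. Its spread was largest in the control MTMs.

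Bnip3, a mitophagy receptor, was 6.27, 6.29 and 6.06 in MYC TAMs, 7.16 and 6.97 in MYC MTMs, 5.60, 5.58 and 6.05 in control TAMs and 5.86, 6.02 and 6.08 in control MTMs. MYC MTMs lay above all other libraries. Ndrg1, a stress-response gene that hypoxia raises and that MYC is known to repress in other cells, was 3.84, 3.86 and 3.59 in MYC TAMs, 3.27 and 3.53 in MYC MTMs, 1.62, 2.59 and 1.60 in control TAMs and 1.76, 2.10 and 1.98 in control MTMs. Every MYC library lay above every control library, in both cell types. P4ha1, a subunit of the collagen prolyl hydroxylase, was 2.92, 2.74 and 3.17 in MYC TAMs, 3.38 and 3.90 in MYC MTMs, 4.03, 3.91 and 3.47 in control TAMs and 3.16, 3.73 and 2.71 in control MTMs. Ankrd37, a small ankyrin-repeat protein and HIF-1 target, was 2.21, 2.33 and 2.28 in MYC TAMs, 2.02 and 2.79 in MYC MTMs, 2.55, 1.46 and 1.68 in control TAMs and 3.15, 1.93 and 2.81 in control MTMs. All its neighbouring groups overlapped. Over the 10 genes, MYC TAMs had the lowest mean for 5 (Hif1a, Car9, Egln3, Adm and P4ha1) and the highest for Ndrg1. The share of all genes with such an order was not counted, so this describes the 10 genes only.

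**Figure D1:**
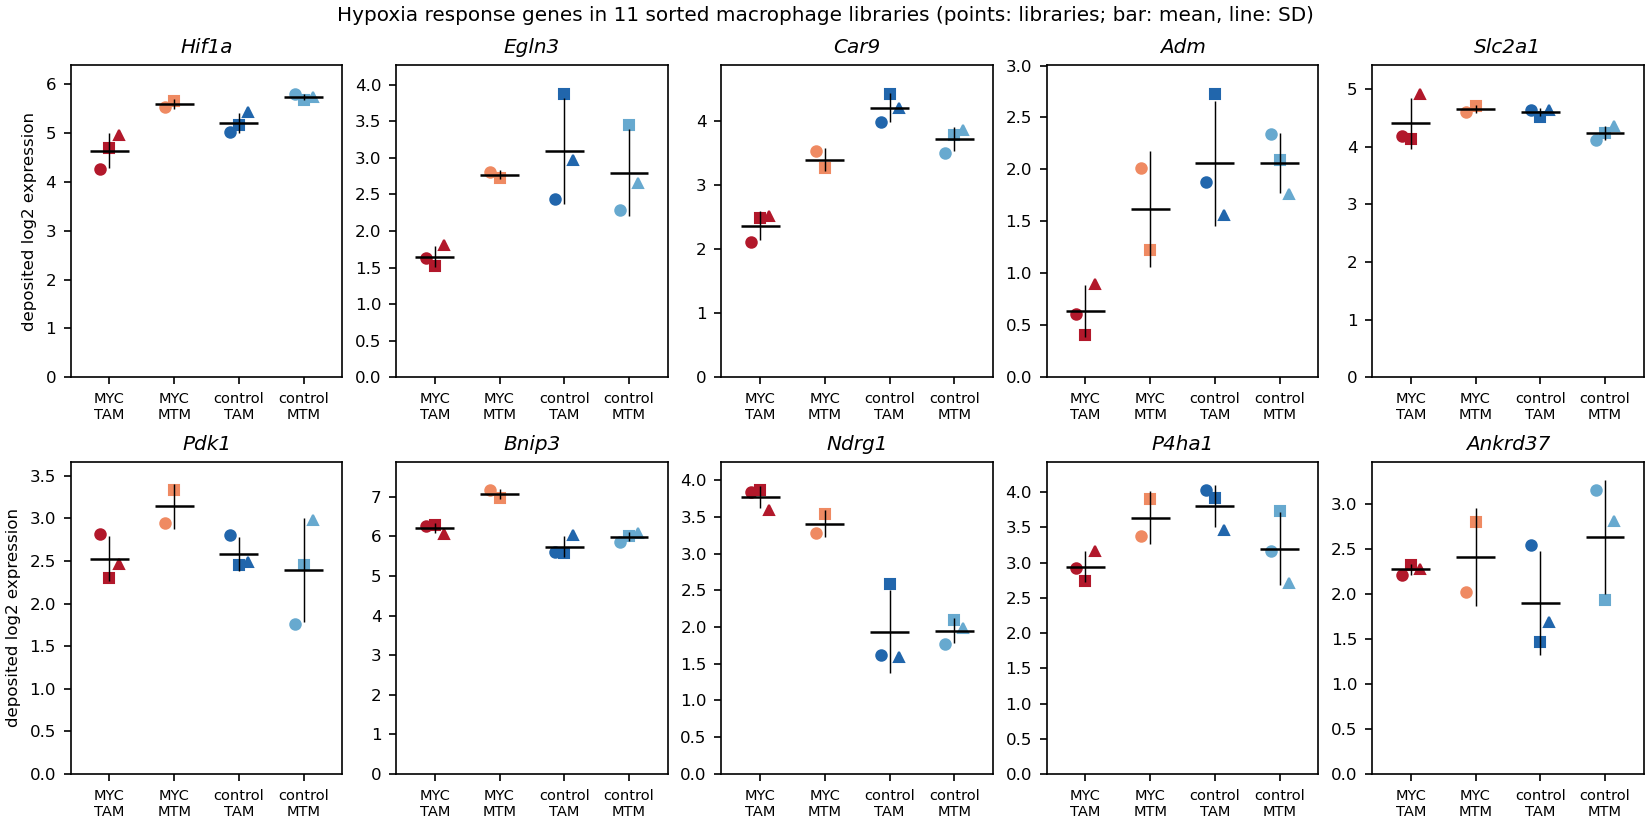
Deposited log2 expression (y axis, from 0) of the 10 hypoxia response genes in 4 groups (x axis); points are libraries, with the same shape for the same mouse within a genotype, horizontal bars are means and vertical lines SDs. MYC TAMs lie below the other groups for Car9, Egln3 and Adm, and both MYC groups lie above both control groups for Ndrg1.

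In TAMs, the MYC minus control comparison asks what the MYC genotype goes with inside the libraries labelled TAM. Their Vcam1 levels did not overlap between the genotypes. Car9, Egln3 and Adm were lower and Ndrg1 higher in MYC TAMs than in control TAMs. Car9 averaged 2.37 ± 0.22 in MYC TAMs and 4.21 ± 0.22 in control TAMs (SD, n = 3 each), a log2 difference of -1.84 ± 0.18 (SE), or 3.58-fold lower on this scale (adjusted p = 0.000216, limma). Egln3 averaged 1.65 ± 0.14 in MYC TAMs and 3.10 ± 0.73 in control TAMs, a difference of -1.45 ± 0.38 (adjusted p = 0.0292, limma). Adm averaged 0.64 ± 0.25 in MYC TAMs and 2.06 ± 0.60 in control TAMs, a difference of -1.42 ± 0.34 (adjusted p = 0.0192, limma). Ndrg1 went the other way, with 3.76 ± 0.15 in MYC TAMs and 1.94 ± 0.57 in control TAMs, a difference of 1.83 ± 0.26 or 3.55-fold (adjusted p = 0.00172, limma). In these bulk samples, fewer cells of a type and less RNA per cell cannot be told apart.

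The other 6 did not pass. Hif1a (-0.56, adjusted p = 0.0722, limma), P4ha1 (-0.86, adjusted p = 0.0689, limma) and Bnip3 (0.46, adjusted p = 0.0777, limma) had libraries that did not overlap between the groups. Ankrd37 (0.37), Slc2a1 (-0.19) and Pdk1 (-0.06) overlapped. So 4 of 10 were called, 1 higher and 3 lower, where 15.9% of all genes were called, 3.89% higher and 12.0% lower. The median difference of the 10 was -0.37, against -0.02 for all genes. Their libraries did not overlap for 7 of 10, against 30.1% of all genes. Car9 and Ndrg1 passed in all 21 alternative analyses. Egln3 passed in 12 and Adm in 13 of them. Both were lost without the MYC TAM library of mouse 4 (adjusted p = 0.0956 for Egln3 and 0.0732 for Adm, limma) and without that of mouse 2 (0.0764 and 0.0549), and also without control TAM 3 (0.0914 and 0.0589), and Egln3 also without control TAM 5 (0.0688).

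In MTMs, 1 of 10 passed the same MYC minus control comparison. Bnip3 averaged 7.07 ± 0.13 in MYC MTMs (n = 2) and 5.99 ± 0.11 in control MTMs (SD, n = 3), a log2 difference of 1.08 ± 0.17 or 2.11-fold (adjusted p = 0.0334, limma), where 0.618% of all genes were called, 0.338% higher and 0.280% lower. This call was lost without MYC MTM 2 (difference 0.98) or MYC MTM 4 (1.17), each of which leaves 1 MYC MTM library. It was also lost without any of the 3 control MTM libraries (adjusted p = 0.0810 to 0.0885, limma) or control TAM 1 (0.0557). Without 1 control MTM library, 35 to 80 of all genes were called, against 108 in the main fit. Ndrg1 was higher by 1.46 ± 0.30 and missed the threshold (adjusted p = 0.0763, limma), passing it in 6 of the 21 alternatives. Pdk1 differed by 0.74 (adjusted p = 0.501, limma), and the remaining differences lay between -0.45 for Adm and 0.44 for P4ha1. The libraries did not overlap for 4 of 10, against 31.2% of all genes, and the median difference was 0.19, against -0.02. The MYC minus control difference of Ndrg1 was not shown to differ between the cell types (0.37 ± 0.40, adjusted p = 0.787, limma).

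The TAM minus MTM comparison asks how the parenchymal population differs from the stromal one within a genotype. In MYC mice Hif1a, Bnip3 and Car9 were lower in TAMs. Hif1a averaged 4.64 ± 0.35 in MYC TAMs (SD, n = 3) and 5.59 ± 0.10 in MYC MTMs (SD, n = 2), a log2 difference of -0.95 ± 0.21 (SE, adjusted p = 0.0331, limma). Bnip3 averaged 6.20 ± 0.13 in MYC TAMs and 7.07 ± 0.13 in MYC MTMs, a difference of -0.86 ± 0.17 (adjusted p = 0.0247, limma). Car9 averaged 2.37 ± 0.22 in MYC TAMs and 3.40 ± 0.18 in MYC MTMs, a difference of -1.03 ± 0.20 (adjusted p = 0.0231, limma).

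Egln3 (-1.12, adjusted p = 0.208, limma), Adm (-0.98, adjusted p = 0.214, limma), P4ha1 (-0.70) and Pdk1 (-0.61) had lower values in every MYC TAM library than in either MYC MTM library without passing, and Ndrg1 (0.36) had higher ones. Slc2a1 (-0.24) and Ankrd37 (-0.14) overlapped. Thus 3 of 10 were called, all lower, where 3.82% of all genes were called lower, 0.664% higher and 4.49% in either direction, and 8 of 10 did not overlap, against 30.4% of all genes. The median difference was -0.78, against -0.01 for all genes. These calls rest on 2 MYC MTM libraries. Leaving out either leaves 1 in that group, and the calls were then lost. Without MYC MTM 2 the difference was -1.02 for Hif1a, -0.77 for Bnip3 and -0.90 for Car9. Without MYC MTM 4 it was -0.89, -0.96 and -1.16. Mice 2 and 4 gave both cell types. With the mouse as a fixed replicate block Hif1a passed (adjusted p = 0.0416, limma) and Bnip3 (0.0696) and Car9 (0.0638) did not, while Egln3, not called without the block, passed (-1.20, adjusted p = 0.0413, limma). Leaving out a MYC TAM library also ended calls, that of Hif1a without MYC TAM 2 (0.0558) or MYC TAM 4 (0.0678) and that of Car9 without MYC TAM 2 (0.0568), and Hif1a was also lost without control TAM 3 (0.0549), control MTM 1 (0.0509) or control MTM 5 (0.0602).

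In control mice none of the 10 passed in limma, and 2 were at an unadjusted p under 0.05, Hif1a (-0.54 ± 0.18) and Car9 (0.49 ± 0.18). Of all genes 2.37% were called, 0.744% higher and 1.63% lower. Hif1a averaged 5.20 ± 0.20 in control TAMs, against 5.74 ± 0.06 in control MTMs (SD, n = 3 each). Car9 averaged 4.21 ± 0.22 in control TAMs, against 3.72 ± 0.19 in control MTMs. The differences of the 10 ran from -0.73 for Ankrd37 to 0.60 for P4ha1, with a median of 0.09, against -0.00 for all genes. For 3 of the 10 (Hif1a, Slc2a1 and Car9) the libraries did not overlap, against 18.9% of all genes.

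Car9 thus had a lower mean in TAMs than in MTMs in MYC mice and a higher mean in TAMs than in MTMs in control mice. The difference between these differences was -1.52 ± 0.27 (SE, adjusted p = 0.0347, limma), and Car9 was the only one of the 10 called, where 1.24% of all genes were, 0.240% higher and 0.996% lower. It passed in 9 of 21 alternatives. The call was lost with the mouse as a fixed replicate block (-1.59, adjusted p = 0.1004, limma), with the epithelial level as a covariate (-1.59, adjusted p = 0.0993, limma) and with each library centred on its median (-1.43, adjusted p = 0.0556, limma). It was also lost without MYC MTM 2 (-1.40) or MYC MTM 4 (-1.65), each of which leaves 1 MYC MTM library. The adjusted p (limma) was 0.0587 without MYC TAM 2, 0.0543 without MYC TAM 4, 0.0871 without control TAM 3 and 0.0833 without control TAM 5. It was 0.0817 without control MTM 1, 0.0507 without control MTM 3 and 0.0809 without control MTM 5. Egln3 (-1.42, adjusted p = 0.381, limma) and P4ha1 (-1.30, adjusted p = 0.238, limma) had differences nearly as large and did not pass. The median of the 10 was -0.71, against 0.01 for all genes.

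**Figure D2:**
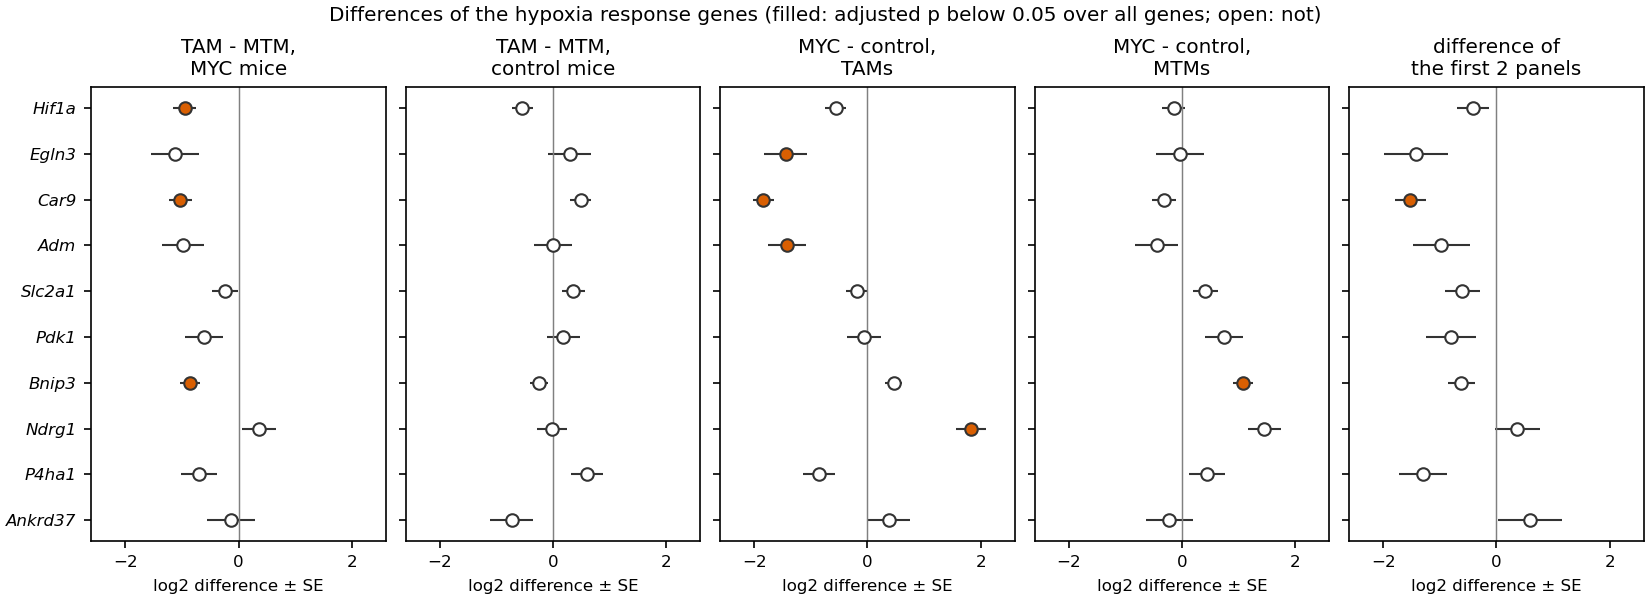
Log2 difference ± SE (x axis) of the 10 hypoxia response genes (y axis) in the comparisons between genotypes and between cell types, with the difference of the TAM minus MTM differences in the last panel; filled points have an adjusted p below 0.05. Car9, Egln3 and Adm sit left of 0 and Ndrg1 right of 0 for MYC minus control in TAMs, while in control mice no TAM minus MTM difference is filled.

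Markers of other cells moved with the same groups. The mean log2 level of 14 measured epithelial markers was 1.50 to 3.56 in MYC TAMs, 3.64 to 3.68 in MYC MTMs, 4.10 to 5.05 in control TAMs and 3.73 to 4.46 in control MTMs. Of the 14, 8 were called lower in MYC TAMs than in control TAMs, where 12.0% of all genes were. A negative difference was found for 12, and none was without a read in every library of a group. All 14 also had a negative TAM minus MTM difference in MYC mice, 1 of them called, where 3.82% of all genes were called lower. In control mice all 14 had a positive TAM minus MTM difference (median 0.41), and 0 were called. The difference of these differences was negative for all 14 (median -1.75), with 1 called, where 0.996% of all genes were called lower. These are the signs that Car9 had. Within groups the order was mixed: control TAM 3 had the highest epithelial level and the highest Car9, Egln3, Adm and Ndrg1 of its group, whereas MYC TAM 6 had the lowest epithelial level and the highest Car9, Egln3 and Adm of its group. With the epithelial level as a covariate, the MYC minus control difference in TAMs was -1.92 for Car9 (adjusted p = 0.0129, limma) and 2.45 for Ndrg1 (adjusted p = 0.0112, limma), against -0.80 for Egln3 (adjusted p = 0.581, limma) and -1.25 for Adm (adjusted p = 0.278, limma). Hif1a, not called before, passed with the covariate (-1.07, adjusted p = 0.0325, limma). The epithelial levels of MYC TAMs and control TAMs did not overlap, so in TAMs this covariate cannot be told apart from the genotype. Calls kept, lost or gained with it do not settle the part of epithelial transcripts.

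The mean of 9 T and NK cell markers was 0.10 to 0.40 in MYC TAMs, 0.40 to 1.12 in MYC MTMs, 1.78 to 2.76 in control TAMs and 1.47 to 1.67 in control MTMs, and no Cd3e read was counted in the MYC TAMs. Of the 9, 6 were called lower in MYC TAMs than in control TAMs, where 12.0% of all genes were. Markers of 2 other cell types had a higher mean in every MYC TAM library than in any control TAM library. For 8 neutrophil markers it was 1.38 to 1.82 in MYC TAMs and 1.06 to 1.35 in control TAMs. Of the 8, 2 were called higher (S100a8 and Cxcr2) and none lower, where 3.89% of all genes were called higher. For 9 endothelial markers the mean was 0.70 to 1.12 in MYC TAMs and 0.44 to 0.64 in control TAMs, with Vwf called higher and Pecam1 lower. This mean leans on Vwf (2.71 in MYC TAMs and 0.25 in control TAMs) and Kdr (3.14 and 2.10). The median difference of the 9 was 0.03. Libraries did not overlap for 1 marker that was higher and 2 that were lower in MYC TAMs, against 30.1% of all genes. The mean levels of fibroblast, B cell and erythroid markers overlapped between MYC TAMs and control TAMs. For fibroblast and B cell markers only MYC TAM 4 (0.70 for each) reached the control TAMs (0.65 to 1.11 and 0.69 to 1.02). Called lower in MYC TAMs were 1 of 9 fibroblast, 2 of 5 B cell and 1 of 4 erythroid markers, and none was called higher. The part of the T and NK cell, neutrophil and endothelial markers in the differences of the hypoxia response genes was not tested, and the covariate cannot settle that of the epithelial markers.

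**Figure D3:**
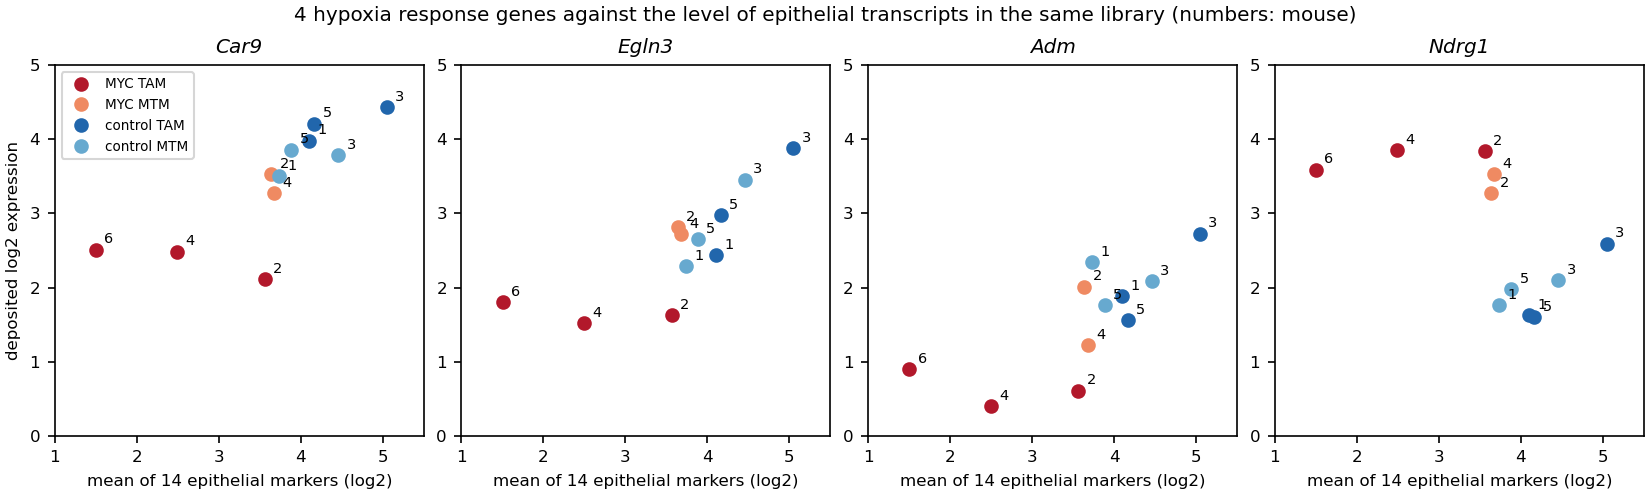
Deposited log2 expression (y axis) of Car9, Egln3, Adm and Ndrg1 against the mean log2 level of 14 epithelial markers (x axis) in 11 libraries, numbered by mouse and coloured by group. MYC TAMs span epithelial levels of 1.50 to 3.56, and their Car9 (2.12 to 2.51) lies below the MYC MTMs at 3.64 and 3.68 (3.53 and 3.28).

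Other lists set these genes beside the rest of the pathway. Of 13 genes of the HIF machinery, 1 was higher and 1 lower in MYC TAMs than in control TAMs, where 15.9% of all genes were called, 3.89% higher and 12.0% lower, so that the count of this list is near the share over all genes. Epas1, the HIF-2 alpha subunit, was 3.12, 1.98 and 3.84 in MYC TAMs and 0.44, 1.11 and 0.60 in control TAMs (difference 2.26 ± 0.44, adjusted p = 0.00753, limma). Vhl, which targets HIF alpha for breakdown, was 1.97, 2.18 and 1.96 in MYC TAMs and 3.38, 3.16 and 3.16 in control TAMs (difference -1.20 ± 0.15, adjusted p = 0.000743, limma). Arnt (0.08) and Egln1 (0.17), the main oxygen sensor, did not pass in this or any other comparison.

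Of 18 glycolytic HIF targets, 1 was higher and 4 lower in MYC TAMs than in control TAMs, against the same 15.9% of all genes. Aldoc (-1.88), Hk2 (-1.69), the glucose transporter Slc2a3 (-1.25) and the lactate exporter Slc16a3 (-0.81) were lower, and the aldolase gene Aldoa (0.49) was higher. The median of the 18 was -0.37, against -0.02 for all genes. Of 31 other HIF targets, 3 were higher and 6 lower, where 3.89% of all genes were called higher and 12.0% lower. Their median was -0.20, against -0.02 for all genes. All 3 higher genes are named here, and of the 6 lower ones only Car12. Hilpda, a lipid droplet protein, differed by 2.74 ± 0.26 (adjusted p = 0.000167, limma), the mitophagy receptor Bnip3l by 2.02 ± 0.22 (adjusted p = 0.000321, limma), and the transcription factor Bhlhe40 by 1.74 ± 0.36 (adjusted p = 0.0102, limma). Car12, a carbonic anhydrase like Car9, was 0.97, 0.51 and 0.23 in MYC TAMs and 1.93, 2.59 and 2.83 in control TAMs, lower by a difference of -1.88 ± 0.34 (adjusted p = 0.00546, limma). Vegfa, the angiogenic growth factor, did not pass (0.24, adjusted p = 0.437, limma). Of 5 hypoxia-linked macrophage genes, Spp1 (3.07) and Cxcr4 (1.08) were higher and Nos2 (-0.95) lower, against the same shares of all genes.

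In MTMs, 1 of these 67 genes passed for MYC minus control, where 0.618% of all genes did: Hilpda was 4.90 and 5.58 in MYC MTMs and 2.83, 3.37 and 3.31 in control MTMs (difference 2.07 ± 0.29, adjusted p = 0.0163, limma). Hilpda, like Ndrg1, was above every control library in every MYC library. For TAM minus MTM in MYC mice, 7 of the 67 were called, where 4.49% of all genes were. Bnip3l was higher in TAMs (1.09), opposite in sign to its relative Bnip3, and Arg1 (-3.75), Hmox1 (-1.55), Ero1l (-1.25), Slc16a3 (-1.15), Pfkp (-0.94) and Pkm (-0.84) were lower. In control mice 2 of the 67 were called, where 2.37% of all genes were: Pfkp (-1.07) and Spp1 (-2.92) were lower in TAMs. The difference between the genotypes' TAM minus MTM differences was called for 2 of the 67, where 1.24% of all genes were called, 0.240% higher and 0.996% lower. It was negative for Pkm (adjusted p = 0.0436, limma) and positive for Spp1 (3.83, adjusted p = 0.0184, limma).

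**Figure D4:**
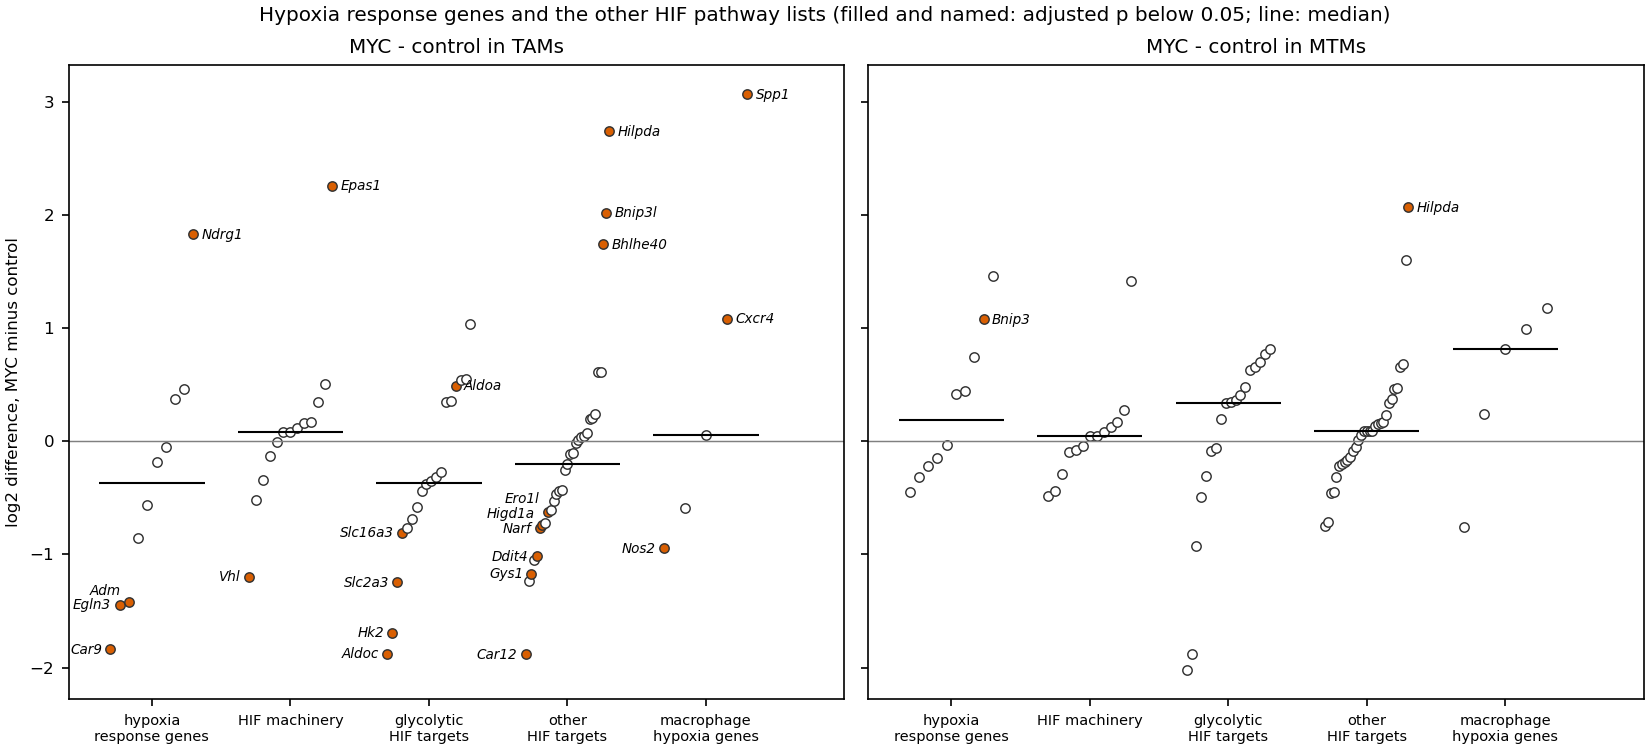
Log2 difference, MYC minus control (y axis), of the 10 hypoxia response genes and 4 further HIF pathway lists (x axis) in TAMs and in MTMs; each point is a gene, filled and named where its adjusted p was below 0.05, and lines are medians. In TAMs called genes lie on both sides of 0 in each list, and in MTMs Bnip3 and Hilpda are filled.

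The hypoxia response genes did not share a single pattern. By the root mean square difference of centred log2 levels over 11 libraries, the closest pairs among them were Slc2a1 with Pdk1 (0.368), Car9 with Egln3 (0.372) and Car9 with Adm (0.389). The genes most like Hif1a among 8725 candidates were Tmod3 (0.106), Usp9x (0.117) and Atp2b1 (0.122), against a spread of Hif1a itself of 0.470 (SD over libraries). Those most like Car9 were Lacc1 (0.174), Atp6v0a2 (0.180) and Atp8a1 (0.191), against 0.722. Those most like Egln3 were Papss1 (0.217), Cdca7 (0.252) and Pcx (0.268), and those most like Adm were Dbn1 (0.252), Cdc6 (0.275) and Nek2 (0.304). Those most like Ndrg1 were Optn (0.251), Rnf128 (0.317) and Sel1l3 (0.318), against 0.885. The nearest were Riok3 (0.245), Sumf1 (0.245) and Eaf1 (0.247) for Bnip3, Syne1 (0.143), Letm1 (0.147) and Tbcd (0.151) for Slc2a1, Dhx58 (0.167), Prpf19 (0.196) and Tgfbr2 (0.203) for P4ha1, Fam76b (0.238), B4galt1 (0.260) and Pigt (0.264) for Pdk1, and Plxnd1 (0.276), Ubald1 (0.296) and Daglb (0.312) for Ankrd37. These are descriptions over libraries that share mice, depth and cell composition.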

How the data were processed

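Messenger RNA of sorted macrophages was measured in 11 libraries, from 500 ng of RNA with integrity numbers of 3.3 to 9.6, with selection of polyadenylated RNA, 8 cycles of PCR and a strand-keeping kit, per the labels' protocols. The submitters' processing notes name HISAT2 as the mapper, mm10 (GRCm38.p5) as the genome, and DESeq2 without a role. The deposited values are log2 expression by the authors, whose formula is not given in the sources used here. They behaved as the log2 of x + 1, with x a read number scaled for depth and exon length: 12456 of 12471 low values (99.88%) were whole reads within 0.05. Reads printed are estimates from this spacing, and depths limit precision by counting error only. For levels near the floor a difference rests on few reads.

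Differences were tested with limma 3.58.1 (R 4.3.3) on the deposited values of all 11 libraries: 4 group means, a variance trend, no block, two-sided tests adjusted by Benjamini-Hochberg over 17475 genes, threshold 0.05, in 5 comparisons. The script was tested on simulated data. Tables and figures were made in Python 3.11.15 (matplotlib 3.10.9, pandas 2.3.3, numpy 2.4.6). No fold is given for groups without reads. The labels give each library its mouse, and 5 mice gave both cell types. Deviations of their paired libraries from the group means correlated at 0.0379 to 0.211, and the replicate block was an alternative. Mice differ between genotypes, and the replicates of a genotype are separate mice. There were 22 alternative settings: pseudocount, filter, scaling, variance model, weights, samples fitted, block, epithelial covariate and libraries left out.

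The hypoxia response genes and the other lists were chosen with earlier results of these data known. Named beside them are up to 4 genes per list and comparison with the smallest adjusted p, further called genes of the HIF lists (chosen after their values were seen), Epas1, Vhl, Arnt, Egln1, Vegfa, Myc, the gate genes, and for each of the 10 the 3 nearest genes with a mean of 1 or more. Of the table's entries, 26 had names turned into dates or numbers and 68 shared a symbol; these were tested with the rest and are named nowhere.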

Additional observations from a re-analysis of the deposited data

Results flagged for a closer look

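Car9 was noted because its TAM minus MTM difference was not the same in the genotypes: -1.03 in MYC mice and 0.49 in control mice, a difference of -1.52 ± 0.27 (SE, adjusted p = 0.0347, limma) over 11 libraries. The call was kept in 9 of the 21 alternatives, and leaving out single libraries also ended it. It was lost with the mouse as a fixed replicate block (-1.59, adjusted p = 0.1004, limma). It was also lost with the epithelial level as a covariate (-1.59, adjusted p = 0.0993, limma). Over all genes, 216 were called in the main fit, 31 with the block and 52 with the covariate. All 14 measured epithelial markers had the same signs as Car9, and their part was not tested.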

How the results depend on the processing

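Over the 1070 alternative values of the 10 hypoxia response genes, 958 kept their direction and side of the threshold, 61 lost a call, 16 gained a call and 35 changed sign, 0 of them among called values; the cause was not tested. For MYC minus control in TAMs, Car9 and Ndrg1 kept their call in all 21 alternatives. Over all genes 2778 were called there, 2293 with library weights and 1547 with only the groups compared. The count of hypoxia response genes called there (4) was 2 with library weights and 2 with only the groups compared. For TAM minus MTM in MYC mice 784 of all genes were called, 579 with median centring, 90 with only the groups compared and 768 with the epithelial covariate. The count of hypoxia response genes there (3) was 0 with median centring, 0 with only the groups compared and 1 with the epithelial covariate. Their count for MYC minus control in MTMs (1) was 2 with the filter at a mean of 1, quantile normalization, median centring, library weights or the covariate, and 0 with only the groups compared or without the MYC TAMs of mice 4 and 6. For the difference of differences 216 of all genes were called, 129 with median centring, 31 with the fixed replicate block and 52 with the covariate. The count of hypoxia response genes there (1) was 0 with median centring, with the fixed replicate block and with the covariate. Leaving out 1 library at a time, the 4 counts were 2 to 6, 0 to 3, 0 to 2 and 0 to 1, and in control mice it stayed at 0.

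The other HIF lists had 19 genes called for MYC minus control in TAMs, 10 with only the groups compared, 11 with the covariate and 11 to 19 without 1 library. Calls over all genes moved with the settings too. For MYC minus control in MTMs they were 108 in the main fit, 890 with weights and 0 with only the groups compared. For TAM minus MTM in control mice they were 414, 1032 with weights, 196 with only the groups compared and 255 with the fixed block. In MTMs the count of the HIF lists (1) was 2 with the filter, 3 without the variance trend, 12 with weights and 0 with only the groups compared. For TAM minus MTM in MYC mice (7) it was 3 with quantile normalization, 2 with median centring, 1 with only the groups compared and 0 to 10 without 1 library. In control mice (2) it was 6 with weights, 0 with only the groups compared, 0 with the fixed replicate block, 1 without the MYC TAMs of mice 4 and 6, and 1 to 2 without 1 library. For the difference of differences (2) it was 1 with the pseudocount of 0.1, quantile normalization or median centring, 4 with the filter, without the trend or with the random block, 5 with weights, 0 with the fixed block or the covariate, and 0 to 3 without 1 library.

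Signs changed for small differences. Under quantile normalization and median centring they were 0.097 and 0.030 for Ankrd37 (TAM minus MTM, MYC mice), 0.063 and 0.070 for Adm and 0.060 and 0.067 for Ndrg1 (TAM minus MTM, control mice), 0.015 and 0.021 for Slc2a1 and 0.23 and 0.15 for Pdk1 (MYC minus control, TAMs), and 0.075 and 0.086 for Egln3 (MYC minus control, MTMs). Pdk1 in TAMs was 0.087 with weights, 0.19 with the covariate and 0.23 without mice 4 and 6; Ankrd37 in TAMs was -0.25 with the covariate; Egln3 in MTMs was 0.075 with weights and 0.092 with the covariate. Without 1 library, TAM minus MTM ranged from -0.52 to 0.25 for Ankrd37 in MYC mice and, in control mice, from -0.093 to 0.63 for Egln3, -0.34 to 0.24 for Adm, -0.34 to 0.16 for Ndrg1 and -0.13 to 0.48 for Pdk1. MYC minus control ranged from -0.20 to 0.059 for Pdk1 in TAMs, and in MTMs from -0.28 to 0.30 for Egln3 and -0.61 to 0.16 for Ankrd37.

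Scaling moved the split of called genes: for MYC minus control in TAMs 24.5% of called genes were higher, 41.6% with quantile normalization and 69.9% with median centring, where the median over all genes was 0.19. For TAM minus MTM in MYC mice the shares were 14.8%, 29.9% and 35.8%, and for the difference of differences 19.4%, 27.5% and 29.5%. Depth limits Adm most, with 12 estimated reads in MYC TAM 4.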
